A study of Homo sapiens with 8 samples.

Results

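The MAP kinase cascade genes are the protein-coding genes of hg38 whose symbol is MAPK, MAP2K, MAP3K, MAP4K or MAPKAPK followed by a number. By this rule, which uses names and no measured value, 46 of 20037 protein-coding genes were members. Binding near them was read from CUT&RUN of HA-tagged RUNX1 in HEL cells, a human erythroleukemia line, where an anti-HA antibody directs a nuclease that cuts out the DNA around the tagged protein. All groups were HEL cells transduced and kept in puromycin. They carried HA-tagged wild-type RUNX1 (WT), HA-tagged RUNX1-4A, HA-tagged RUNX1-4D or an empty vector, with 2 biological replicates each. Names of this kind usually stand for alanines, which cannot be phosphorylated (4A), and aspartates, which mimic phosphorylation (4D), and the labels do not list the residues. The empty vector line, which holds no tagged protein, was the background for peak calling per the series design, and its libraries were not analysed here. The tagged protein came from a transduced vector on top of the RUNX1 that the cells make themselves, and only the tagged form was read. The sources used here do not give whether each line was a clone or a pool. Binding does not show whether a gene is expressed, and no expression was measured here.

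A MAP kinase cascade passes a signal along a chain of protein kinases. A MAP3K, which may itself be switched on by a MAP4K, phosphorylates a MAP2K, and the MAP2K phosphorylates a MAP kinase on a threonine and a tyrosine. The MAP kinases fall into the ERK, ERK5, JNK and p38 families and a few atypical kinases, and MAPKAPK kinases act below p38 and the atypical kinases. In blood progenitors, ERK signalling below the thrombopoietin receptor is known for its part in megakaryocyte development, and ERK is among the kinases known to phosphorylate RUNX1 on serine and threonine.

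The lists held 5358 to 6764 peaks in the replicate 1 libraries and 21122 to 25911 in the replicate 2 libraries. Read depth is unknown, as the lists give no totals of reads, so a gene with no peak was not called at that library's depth. A gene was counted as called in a library when a peak overlapped the window of 10 kb to either side of either gene end. It was counted as called in a line when a single region, made by merging overlapping peaks of the lists, held a peak of both replicates. Fold enrichments over background and −log10 q values are those of the authors' lists and describe peaks within a list.

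Peaks of tagged RUNX1 lay near most MAP kinase cascade genes in the longer lists and near a smaller group in every list. The WT line called 20 of the 46 genes (43.5%, against 25.6% of all protein-coding genes by the same rule). The 4A line called 15 (32.6%, against 21.8%) and the 4D line 14 (30.4%, against 19.5%). A single region of all 6 libraries was found at 11 members (23.9%) and at 14.5% of all genes. At least 1 library had a peak at 40 of the 46 (87.0%, against 61.9% of all genes). No test of the list was made, and these shares are a description. The members are long genes, with a median of 73.7 kb against 24.1 kb over all genes, and each gene over 20 kb has 40 kb searched. Among genes over 20 kb, WT called 16 of 36 members (26.3% of all such genes), 4A 11 (22.0%) and 4D 10 (20.2%), and 7 were called in every library (14.6%). Among shorter genes 4 of 10 members were called in each line (24.6, 21.5 and 18.8% of all such genes for WT, 4A and 4D) and in every library (14.4%).

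**Figure D1:**
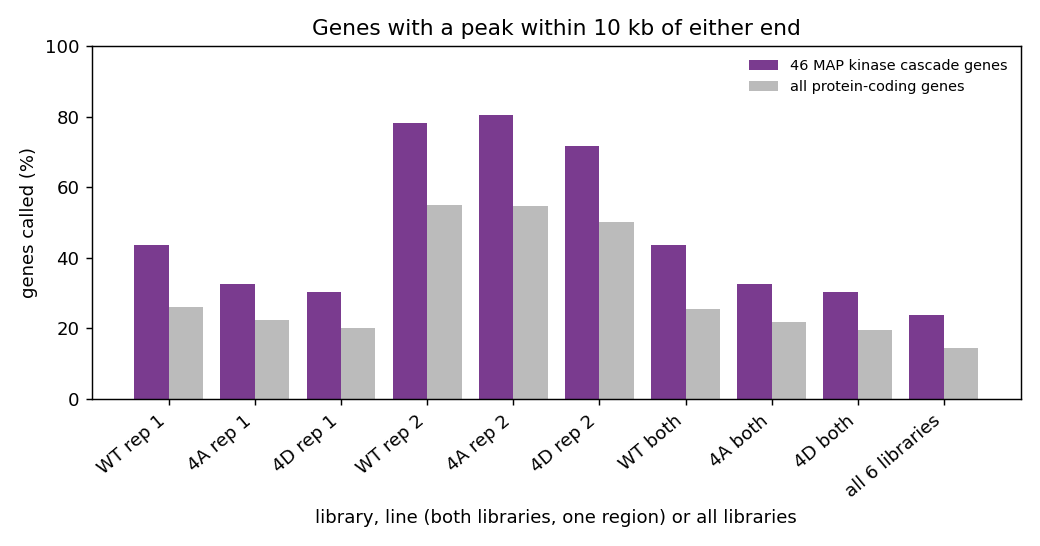
Percentage of the 46 MAP kinase cascade genes (purple) and of all 20037 protein-coding genes (grey) with a peak within 10 kb of either gene end, in each library, in both libraries of a line in a single region, and in all 6 libraries. The members' bar is the taller in each pair, from 23.9 against 14.5% in all 6 libraries to 80.4 against 54.8% in 4A replicate 2.

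Single libraries called 20 (WT), 15 (4A) and 14 (4D) members in replicate 1, where 26.2, 22.5 and 20.1% of all genes were called. In replicate 2 they called 36 (WT), 37 (4A) and 33 (4D), where 54.9, 54.8 and 50.1% of all genes were called. The replicate 1 list thus set the count of each line, and with the replicate 2 list alone the counts are the latter. The mean number of members per library was 28.0 ± 11.3 for WT (SD, n = 2), and it was 26.0 ± 15.6 for 4A and 23.5 ± 13.4 for 4D, likewise. The line means lay closer together than the replicates of each line, of which replicate 2 had the longer list in every line. An exact permutation test on log2 of the counts gave p = 0.800, where the smallest possible p is 0.0667. It permuted lines over the 6 libraries without regard to replicate number, so the gap between replicates entered it. Within each replicate number 4D called the fewest members, and with lines permuted within the numbers p was 0.50, where the smallest possible p is 0.167. Neither form of the test could reach 0.05.

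**Figure D2:**
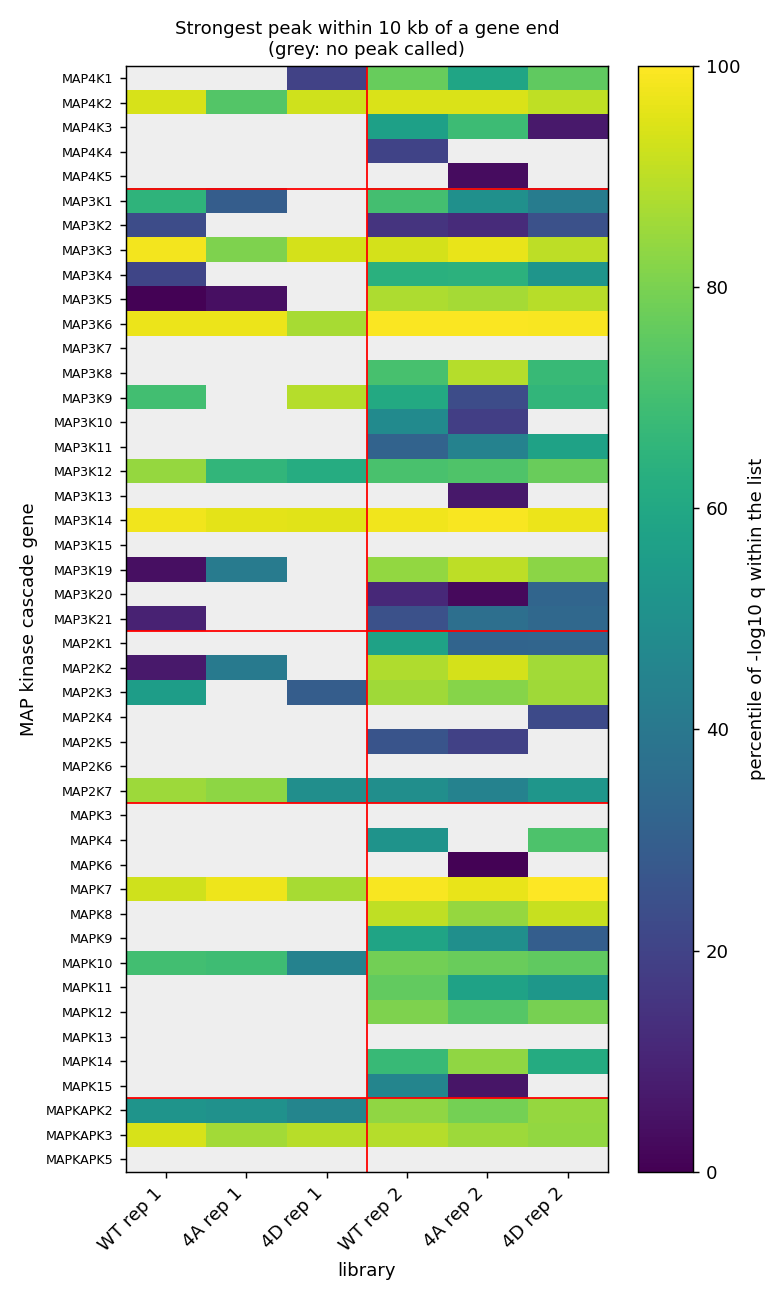
Strongest peak within 10 kb of either end of each of 45 of the 46 genes (rows, by tier, with red lines between tiers) in the 6 libraries (columns, replicate 1 left of the red line), coloured by the percentile of its −log10 q among the peaks of the same list; grey marks no peak. The rows of MAP3K6, MAP3K14 and MAPK7 lie above the 85th percentile in each list, and 10 rows are coloured in all replicate 2 columns and grey in all replicate 1 columns.

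The called members were counted by tier, beside the shares of all genes called in WT, 4A and 4D (25.6, 21.8 and 19.5%). Of 18 MAP3K genes, which receive signals from stress, cytokine and growth factor receptors, WT called 11, 4A called 7 and 4D called 5. With the lists shortened to a common length within each replicate number these counts were 6, 6 and 5. Of 7 MAP2K genes, 3, 2 and 2 were called in WT, 4A and 4D, and of 13 MAP kinases 3 in each line (23.1%), a share near that of all genes. Of 5 MAP4K genes, WT and 4A each called 1 and 4D called 2, and of 3 MAPKAPK genes 2 in each line.

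Among MAP4K genes, MAP4K2 was called in all 6 libraries. It encodes a kinase that feeds the JNK branch (chromosome 11, 64784918 to 64803214). It had 2 such regions, and both lay closer to another gene. The first (64778481 to 64778927) lay 6.26 kb outside the 3′ end and 0.114 kb from an end of SF1, a splicing factor. Its −log10 q was 10.8 and 18.0 for WT, 2.23 and 15.0 for 4A, and 14.5 and 7.57 for 4D. The 4A replicate 1 value was the lowest and the ranges of the lines overlapped. The second (64810099 to 64811073) lay 7.43 kb before the start and inside MEN1, the gene of the chromatin regulator menin. It had −log10 q of 42.9 and 62.6 for WT, 15.5 and 64.3 for 4A, and 26.1 and 45.6 for 4D, and each replicate 2 value was above each replicate 1 value.

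MAP4K1 encodes HPK1, a kinase of blood cells. It was called as a line in 4D and not in WT or 4A, by a region inside the neighbouring RYR1 (chromosome 19, 38583529 to 38583909), 3.91 kb beyond the 3′ end of MAP4K1. The −log10 q there was 24.0 (WT), 12.7 (4A) and 22.2 (4D) in replicate 2 and 3.66 in 4D replicate 1, with no peak in the other replicate 1 lists. MAP4K3 was called in the replicate 2 lists alone, MAP4K4 in WT replicate 2 alone and MAP4K5 in 4A replicate 2 alone.

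Among MAP3K genes, MAP3K14 and MAP3K3 had the strongest peaks at their own starts. MAP3K14 encodes NIK, the kinase of the non-canonical NF-κB pathway (chromosome 17, 45263119 to 45317020, minus strand). Its region (45316268 to 45317816) had summits within 26 bp of each other in the 6 lists, with a median 0.252 kb before the start. The −log10 q was 65.7 and 101 for WT, 41.4 and 136 for 4A, and 32.1 and 85.2 for 4D, and the fold enrichments over background ran from 13.2 to 22.9. Each replicate 2 value of −log10 q was above each replicate 1 value, and the lines overlapped. The peak stood at the 95.7th percentile of its list or higher in every library.

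MAP3K3 encodes MEKK3, which acts on the ERK5 and p38 branches (chromosome 17, 63622417 to 63696305, plus strand). Its region (63621808 to 63622944) had a median summit 0.135 kb before the start. The −log10 q was 67.8 and 57.9 for WT, 18.9 and 81.7 for 4A, and 27.1 and 44.1 for 4D, and fold enrichments ran from 10.8 to 24.6. In WT the replicate 1 value was the higher, and in 4A and 4D the replicate 2 value. A second region, beyond the 3′ end of MAP3K3 and inside LIMD2, was called in both replicates of WT and 4D and in 4A replicate 2.

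The bases before these starts are shown with those of MAP3K9, whose start had peaks in all lists but 4A replicate 1, because their regions lie at the outermost start of the gene, with the member's end nearest, and were called in 5 or all 6 lists. They are the 250 bases before the RefSeq start (GRCh38.p14), 5′ to 3′ on the gene's strand, with capitals on any core RUNX motif, which is TGTGGT or TGCGGT on either strand.
MAP3K14, chr17:45317021-45317270, minus: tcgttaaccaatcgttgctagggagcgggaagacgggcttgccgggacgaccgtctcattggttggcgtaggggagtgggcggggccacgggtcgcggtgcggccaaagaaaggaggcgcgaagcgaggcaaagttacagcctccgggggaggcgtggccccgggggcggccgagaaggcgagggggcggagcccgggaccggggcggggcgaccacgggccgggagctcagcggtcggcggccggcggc
MAP3K3, chr17:63622167-63622416, plus: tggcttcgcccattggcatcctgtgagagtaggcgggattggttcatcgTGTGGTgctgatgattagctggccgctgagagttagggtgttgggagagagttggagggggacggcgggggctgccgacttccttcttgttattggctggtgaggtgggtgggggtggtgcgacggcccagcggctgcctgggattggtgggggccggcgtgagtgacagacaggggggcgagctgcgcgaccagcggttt
MAP3K9, chr14:70809514-70809763, minus: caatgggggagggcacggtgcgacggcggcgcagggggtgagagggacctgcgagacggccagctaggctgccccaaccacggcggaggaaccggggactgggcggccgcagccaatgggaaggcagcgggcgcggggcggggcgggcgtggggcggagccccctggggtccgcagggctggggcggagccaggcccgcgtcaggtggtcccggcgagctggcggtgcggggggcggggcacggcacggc
Of the 3, the MAP3K3 stretch alone held a core motif, a TGTGGT that begins 201 bases before the start. Over the 250 bases before every RefSeq start of the members, 5 of 58 windows held a core motif, against 15.6% of 22199 windows of all protein-coding genes. Among windows of all genes with a peak of each of the 6 libraries the share was 27.2%, and 1 of 5 such member windows held a motif. Of the member windows with no peak, 4 of 28 held one, and of those with a peak of some libraries 0 of 25. These are matches of letters in a short window, and sequence outside it was not analysed here.

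The other MAP3K genes called in all 6 libraries were MAP3K12 and MAP3K6. MAP3K12 encodes DLK, a kinase upstream of JNK (chromosome 12, 53479669 to 53501539). Its region (53500269 to 53501630) lay 0.766 kb below the gene's upper end and 0.150 kb from an end of TARBP2, a partner of Dicer. There the −log10 q was 26.3 and 17.5 for WT, 12.7 and 16.4 for 4A, and 9.85 and 23.6 for 4D. Both WT values were above both 4A values, the 4D values spanned those of 4A, and values of separate lists were not tested against each other. MAP3K6 encodes ASK2, a stress-responsive kinase (chromosome 1, 27355184 to 27366961). Its region (27369081 to 27369861) lay 2.33 kb before the start, inside FCN3, which encodes a lectin of the complement system, and 0.180 kb from an end of that gene. It had the highest −log10 q of the MAP3K regions in the replicate 2 lists, and its values were 57.2 and 164 for WT, 46.8 and 152 for 4A, and 19.8 and 128 for 4D. The 3 replicate 2 values stood above the 3 replicate 1 values.

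MAP3K genes, which are 18 of the 46 members, also held most of the members whose call differed between lines. MAP3K2, MAP3K4 and MAP3K21 were called in WT and not in 4A or 4D (4.49% of all genes), by regions at 0.402, 0.0620 and 0.0410 kb from their starts. These 3 encode MEKK2, MEKK4 and a mixed lineage kinase, and their −log10 q in WT replicate 1 was 5.66, 5.32 and 3.55, at the 23.4th, 20.9th and 9.5th percentile of that list. The same regions also had peaks in the replicate 2 lists of all lines. Their −log10 q there for WT, 4A and 4D was 3.72, 3.06 and 5.07 at MAP3K2. It was 15.2, 15.1 and 10.8 at MAP3K4, and 5.17, 6.80 and 6.62 at MAP3K21. MAP3K1, MAP3K5 and MAP3K19 were called in WT and 4A and not in 4D. Of all genes, 6.16% were called in 4A and not in 4D whatever the WT call, as were 4 members, MAP2K2 included. The share of all genes called in both WT and 4A and not in 4D was not counted. At MAP3K5 the WT and 4A calls came from separate regions, with −log10 q of 1.65 in WT replicate 1 and 2.09 in 4A replicate 1. The MAP3K19 region lay inside RAB3GAP1, 0.335 kb from an end of that gene, with 2.63 in WT replicate 1. MAP3K1 encodes MEKK1, a kinase of the JNK branch. Its region (chromosome 5, 56816390 to 56817094) had −log10 q of 14.9 and 18.9 for WT, 5.55 and 10.0 for 4A, and 7.40 in 4D replicate 2. MAP3K9, a mixed lineage kinase that acts on JNK, was called in WT (16.9 and 14.1) and 4D (21.3 and 15.9) but had a peak in replicate 2 alone in 4A (4.59). MAP3K8 encodes TPL2, a kinase that links inflammatory receptors to ERK. It was called at its start in the replicate 2 lists alone, with −log10 q of 19.4 (WT), 41.9 (4A) and 16.8 (4D). MAP3K11 and MAP3K20 were likewise called in the replicate 2 lists alone. MAP3K10 and MAP3K13 were called in 1 or 2 replicate 2 lists. MAP3K7, which encodes TAK1, and MAP3K15 had no peak within 10 kb of either end in any library.

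Among MAP2K genes, MAP2K7 was called in all 6 libraries. It encodes MKK7, an activator of JNK (chromosome 19, 7903877 to 7914478). The region (7920220 to 7920949) lay 6.11 kb beyond its 3′ end and inside SNAPC2, a subunit of a small nuclear RNA transcription complex, with −log10 q of 27.3 and 10.2 for WT, 20.7 and 5.95 for 4A, and 7.60 and 10.9 for 4D. In WT and 4A the replicate 1 value was the higher. At the MAP2K7 start itself the 3 replicate 2 lists had peaks (8.96 for WT, 8.48 for 4A and 3.01 for 4D) and no replicate 1 list did.

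The activators of ERK were called in some lists. MAP2K2, which encodes MEK2, had a region 0.961 kb beyond its 3′ end (chromosome 19, 4089055 to 4090047), with −log10 q of 3.13 and 39.6 for WT and 6.88 and 58.5 for 4A, and 35.3 in 4D replicate 2 alone. MAP2K1, which encodes MEK1, was called at its start in the replicate 2 lists alone (12.9, 6.05 and 6.08 for WT, 4A and 4D). MAP2K3 encodes MKK3, an activator of p38, and had most regions of the members outside the MAPK11 and MAPK12 locus, with 8. Its start region (chromosome 17, 21284323 to 21285050) had −log10 q of 12.0 and 35.2 for WT, and 29.1 and 32.6 in the replicate 2 lists of 4A and 4D. A further region 9.93 kb inside the gene was called in both replicates of WT and 4D and in 4A replicate 2. There the −log10 q was 8.07 and 20.3 for WT, 4.72 and 33.9 for 4D, and 8.05 in 4A replicate 2. MAP2K5 was called in 2 lists and MAP2K4 in 1. MAP2K6, which encodes the other main activator of p38, had no peak within 10 kb of either end.

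Among the MAP kinases, MAPK7 and MAPK10 were of those called in all 6 libraries. MAPK3, which encodes ERK1, had no peak within 10 kb of either end in any library.

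MAPK7 encodes ERK5, a MAP kinase with a transcription activating tail (chromosome 17, 19377750 to 19383544). It had 2 regions in all 6 libraries. One (19369924 to 19371335) lay 7.0 kb before the start, over B9D1, a gene of cilia, with −log10 q of 39.6 and 125 for WT, 51.3 and 84.5 for 4A, and 19.8 and 180 for 4D. The other (19377428 to 19378508) lay 0.208 kb inside the start and 0.0450 kb from an end of B9D1, with 8.97 and 98.4 for WT, 11.3 and 52.9 for 4A, and 8.61 and 83.4 for 4D. At both regions the replicate 2 values stood above the replicate 1 values.

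MAPK10 encodes JNK3, the JNK of nerve cells (chromosome 4, 86010405 to 86594074). Its region (86594051 to 86595193) lay 0.301 kb outside its upper end and 0.0600 kb from an end of PTPN13, a tyrosine phosphatase gene. The nearest RefSeq start listed for MAPK10 was 224 kb away. No other region was called within 10 kb of either end of this gene, which spans 584 kb. The −log10 q was 16.9 and 26.0 for WT, 13.5 and 24.0 for 4A, and 6.90 and 22.1 for 4D. The other JNK genes, MAPK8 and MAPK9, were called in the replicate 2 lists alone. At MAPK8, which encodes JNK1, the strongest region (chromosome 10, 48442317 to 48443093) lay 3.28 kb beyond the 3′ end, with −log10 q of 45.8 (WT), 32.5 (4A) and 48.3 (4D), and the start had peaks of 19.8, 18.9 and 8.46.

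No p38 gene was called in a line. MAPK11, MAPK12 and MAPK14, which encode p38β, p38γ and p38α, were each called in the replicate 2 lists and in no replicate 1 list, and MAPK13, next to MAPK14, had no peak. MAPK11 and MAPK12 are neighbours on chromosome 22 and together had 11 regions, of which 7 counted for both genes. The strongest MAPK14 region (chromosome 6, 36118591 to 36118924) lay in the gene, 5.40 kb short of its 3′ end, with −log10 q of 17.2 (WT), 31.3 (4A) and 14.0 (4D). Of the atypical kinases, MAPK4 and MAPK15 were called in 2 replicate 2 lists and MAPK6 in 1. Altogether 10 members were called in the 3 replicate 2 lists and in no replicate 1 list, where 15.3% of all genes showed the same pattern. With no peak within 10 kb of either end in any library were 6 members (MAPK3, MAPK13, MAP2K6, MAP3K7, MAP3K15 and MAPKAPK5), or 13.0%, against 38.1% of all genes.

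Below the MAP kinases, MAPKAPK2 and MAPKAPK3 were called in all 6 libraries. They encode MK2 and MK3, kinases that p38 activates and that act on messenger RNA stability. The MAPKAPK3 region (chromosome 3, 50611566 to 50612522) lay 0.261 kb after a RefSeq start of the gene and 0.364 kb from an end of CISH, a feedback inhibitor of cytokine signalling. Its −log10 q was 42.2 and 41.8 for WT, 23.4 and 33.3 for 4A, and 21.8 and 31.3 for 4D. Both WT values of −log10 q were above those of the other lists, but the fold enrichment of WT replicate 2 (12.0) was below that of replicate 1 of 4A (13.0) and of 4D (13.3). The MAPKAPK2 region (chromosome 1, 206735392 to 206736106) lay 1.46 kb outside its upper end, with −log10 q of 10.8 and 31.5 for WT, 8.93 and 25.9 for 4A, and 6.96 and 31.5 for 4D.

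**Figure D3:**
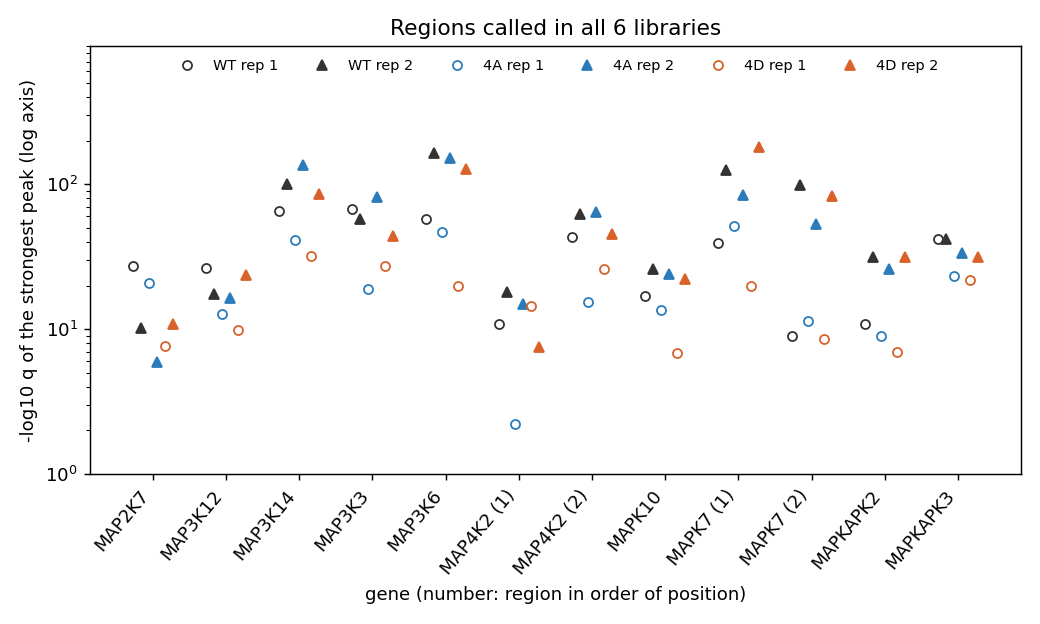
The −log10 q of the strongest peak (log axis) in each of the 6 libraries, for 12 of the 13 regions that all libraries called within 10 kb of a member's end; open circles are replicate 1, filled triangles replicate 2, and colours the lines. MAPK7 (180 in 4D replicate 2 at its first region) and MAP3K6 (164 in WT replicate 2) reached the highest values. At MAP2K7 the WT and 4A replicate 1 points stand above their replicate 2 points.

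Many of these regions lay nearer to an end of another gene than to an end of the member. By this measure the MAP3K12 and MAPKAPK3 regions and the second MAPK7 region went to a neighbour, though their summits lay inside the member. The first MAPK7 region went to MAPK7, though its summit lay inside B9D1. Of the 13 regions, the member had the nearest protein-coding gene end in 5, those of MAP3K3, MAP3K14, MAPK7 and MAPKAPK2 among them. When each peak counted only for the gene with the nearest end, 5 members were called in all 6 libraries, against 9.26% of all genes, and the lines called 13 (WT), 8 (4A) and 6 (4D) members against 17.4, 14.8 and 13.2% of all genes. Over all 99 pairs of a member and a region, the member's end was nearest in 63.

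**Figure D4:**
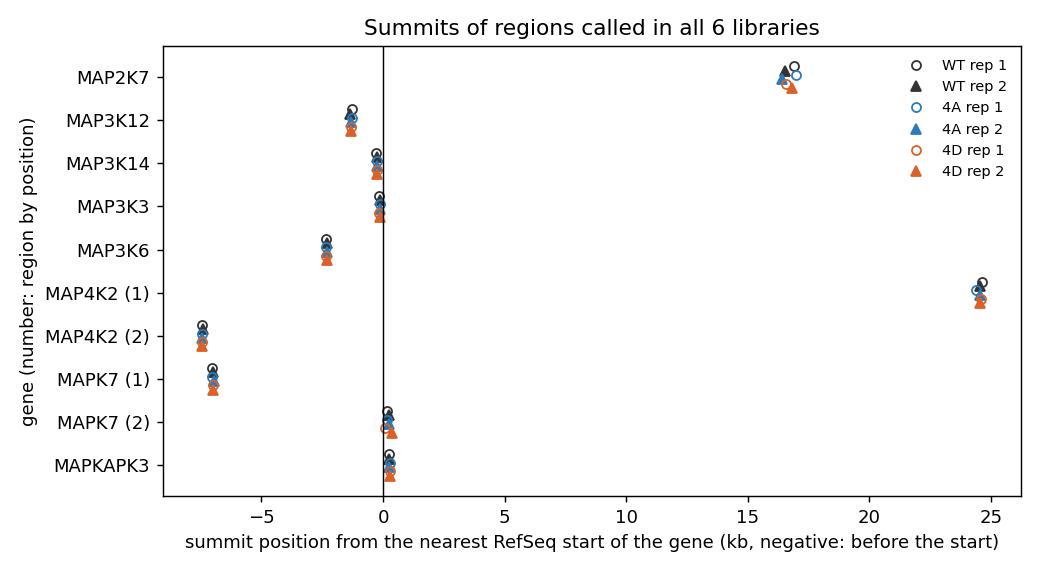
Summit positions of the peaks in the 6 libraries relative to the nearest RefSeq start of the member (kb, negative before the start), for regions of all 6 libraries at members with a start in the table and within 30 kb of it. Summits of MAP3K3, MAP3K14 and MAPKAPK3 and the second MAPK7 region gather within 1 kb of the start, and those of MAP2K7 and the first MAP4K2 region lie beyond the 3′ end.

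Promoter binding was counted apart from distance, with the RefSeq windows from 250 bases before to 50 bases after each start. Such windows were held for 41 members, and the others, MAPK15, MAP3K1, MAP3K15 and MAPKAPK2 among them, were not counted. A peak lay over a window in 10 (WT), 5 (4A) and 6 (4D) of the 41 members in replicate 1, where it did so in 15.1, 11.6 and 10.9% of all genes. In replicate 2 the counts were 21 (WT), 19 (4A) and 19 (4D), against 36.6, 36.4 and 31.5%. At least 1 library had a peak over a window of 22 members (53.7%, against 42.6% of all genes). All 6 libraries had a peak over a window of 5 members (12.2%, against 7.86% of all genes): MAP3K3, MAP3K14, MAP4K5, MAPK7 and MAPKAPK3.

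MAP4K5 was in this group though the distance rule missed it, because the region at its listed start lies 28.5 kb from the outer end of the gene. That region (chromosome 14, 50531515 to 50532896) had −log10 q of 25.6 and 66.0 for WT, 32.6 and 81.0 for 4A, and 5.79 and 63.1 for 4D. Other regions of all 6 libraries lay deeper inside members than the windows reach. Inside MAPKAPK2 such a region (chromosome 1, 206717003 to 206717763) lay 16.7 kb from an end, with 34.9 and 103 for WT, 27.1 and 131 for 4A, and 22.5 and 86.5 for 4D. Regions 50.7 kb inside MAPK4 and 31.3 kb inside MAP3K5 were also called in every library. With the whole gene body counted, 14 members were called in all 6 libraries, against 17.0% of all genes.

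For each pair of lines, the members with peaks in both replicates of one and in no replicate of the second were counted. In each of the 6 directions the count was 0. Of all genes, 0.115% were so called for WT without 4A, 0.374% for WT without 4D and 0.160% for 4A without WT. The shares were 0.349% for 4A without 4D, 0.0449% for 4D without WT and 0.0848% for 4D without 4A. No exact test was made for single genes, since 2 libraries against 2 cannot give a p below 0.333. Among the 92 regions at members, 0 showed this pattern, against 0.114 to 0.669% of the 33478 regions of the union. The calls of the lines differed for 10 of the 46 members and for 3077 of the 20037 protein-coding genes. All 10 members were called in each of the 3 replicate 2 lists, so these differences rested on the replicate 1 lists. Over all genes, 94.1% of 3077 genes whose line calls differed were called in each replicate 2 list. The line calls of WT without 4D covered 7 members (15.2%, against 8.18% of all genes), and those of WT without 4A covered 5 (10.9%, against 7.04%). The reverse held for 1 member in 4D without WT (2.16% of all genes) and for 0 for 4A without WT (3.24%). Between the mutants, 4 members were called in 4A without 4D (6.16%) and 3 in 4D without 4A (3.93%). The WT replicate 1 list was the longest of the replicate 1 lists. With the lists cut to their strongest peaks at a common length within each replicate number, WT called 14 members (21% of all genes), 4A called 13 (19.2%) and 4D called 14 (19.5%).

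Other genes of the same pathways were counted from lists of 89 genes. Of these, WT called 35 (39.3%), 4A 31 (34.8%) and 4D 28 (31.5%), and 24 were called in all 6 libraries (27.0%). The shares of all genes were 25.6, 21.8, 19.5 and 14.5%, and no smaller list was tested against them. Transcription factors that the MAP kinases phosphorylate were called at 9 of 14 for WT and at 8 for each mutant, with regions of all 6 libraries at ELK1, ELK4, SRF, JUND, MEF2D and CREB1. Adaptors and GTPases above the cascade were called at 11, 9 and 8 of 24, and those called in all 6 libraries included RRAS, RASGRP2 and RASGRP4, which activate RAS-like GTPases or belong to them, and RASA1, RASA2 and RASA3, which switch them off. Of 12 kinases of the first tiers under other names, 4, 2 and 2 were called, and TAOK3 and NLK in all 6. Of 14 scaffold genes, 4, 6 and 4 were called, with KSR1, SPAG9, IQGAP1 and ARRB2 in all 6. Of 8 downstream kinases 2 were called in each line (RPS6KA5 and MKNK1), near the share of all genes, and of 17 inhibitors 5, 4 and 4, with DUSP6, DUSP10 and SPRED3 in all 6. DUSP6 encodes the phosphatase that inactivates ERK.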

How the data were processed

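The data were 6 CUT&RUN peak lists from HEL cells, for 2 libraries of each line with tagged RUNX1. Per the submitters' processing notes, MACS2 2.2.7.1, Bowtie2 2.4.2, cutadapt 3.4, deepTools 3.5.1 and Picard 2.25.6 were used on hg38, and the series design names the empty vector as background for the calls. Read filters, and whether the background was pooled, are not given in the sources used here. For each peak the authors' lists give a fold enrichment over background (a linear ratio), −log10 values of its p-value and its q-value, and a score. The lowest −log10 q of a list was 1.30 to 1.41. Total reads are unknown, and the number of peaks per list was 5358 to 25911 on chromosomes 1 to 22, X and Y.

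Peaks overlapping by at least 1 bp were merged into 33478 regions. Gene ends came from a RefSeq table (GRCh38.p14), and starts, strands and sequence from RefSeq promoter windows. All positions are 1-based. A member was called by the rule in the text, and members were named where they were called in all 6 libraries, in both libraries of a line and neither of another, in no library, in the replicate 2 lists alone, or had most regions; the remaining members are given by name, count or line call, and values outside this rule (members whose line calls differ, deep regions, promoter windows) were chosen after their values were seen. The members and lists were chosen with earlier results of these data known. The number of members per library was compared over lines by an exact permutation test of the sum of squares between line means of its log2. The calls were tested on simulated peaks (Python 3.11.15, pandas 2.3.3). Same-numbered libraries deviated together over the regions (correlation 0.107 to 0.183 for the 3 pairs of lines), and no shared day is stated. Replicate number was therefore used as a block in an alternative form of the test, and the main form ignored it. The alternatives were the distance, the summit, the gene body, a stricter q, equal list lengths, the nearest gene, a larger overlap, separate regions, each library left out and a replicate block. The values of some genes are not reported here, and counts over members and lists include them.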

Additional observations from a re-analysis of the deposited data

How the results depend on the processing

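The number of members called in a line moved by over 1.5 times under some settings. With all lists at one length it was 8 in WT, 9 in 4A and 11 in 4D, so that 4D was highest and WT lowest, and 7 members were called in all 6 libraries (13.3, 13.0, 12.2 and 8.88% of all genes). With the nearest gene end alone it was 13 (WT), 8 (4A) and 6 (4D), and 5 in all 6 libraries. Within 2 kb of a gene end it was 9 in 4D. Leaving out single libraries gave 20 to 36 members in WT, 15 to 37 in 4A and 14 to 33 in 4D, the higher value being without replicate 1 of the line. Leaving out libraries gave 11 to 31 members called in all remaining lists, the highest without the 3 replicate 1 lists, which was chosen after seeing the data (43.7% of all genes were then called). Members with peaks in both replicates of one line and in no replicate of a second rose from 0 to 1 for WT not 4A and 4D not 4A with a −log10 q of at least 5 (MAP3K9 in both), and to 1 for 4D not WT and 4D not 4A with all lists at one length (MAP4K1 in both). The exact permutation test of the number of members gave p = 0.50 with the replicate block, where the smallest possible p is 0.167, and 0.667 to 1.0 without single libraries. No p reached 0.05 in any of the 14 settings, and none could, since the smallest possible p exceeds it. The replicate block changed no call. The cause of these changes was not tested. Depth is unknown and list length stands in its place, so absence from a replicate 1 list limits each line call.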
